A study of Homo sapiens with 4 samples.

Results

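The integrated stress response was followed here through 10 genes in HAP1, a human leukaemia-derived cell line that is nearly haploid. They are known for roles in this response: the transcription factor genes ATF4, DDIT3 (which encodes CHOP), ATF3 and XBP1, and the response genes CHAC1, ASNS, TRIB3, HSPA5, DDIT4 and SESN2. They are 10 of the 57820 genes counted, and all 10 were among the 15136 genes expressed highly enough to be tested. RNA-seq was performed on untreated double knockout cells (dKO, 2 libraries), which lack RING1A and RING1B, the enzymes of Polycomb repressive complex 1, and on triple knockout cells (tKO, 2 libraries), which lack BAP1 in addition. All 4 libraries thus lack RING1A/B, so wild-type cells were not analysed here. The BAP1 and RING1A alleles carry an inserted STOP cassette in selected clones, and RING1B mutant cells were obtained commercially. The study gives its replicates as independent biological replicates, without saying here whether the tKO libraries share a clone. The comparison asks whether loss of BAP1, a deubiquitinase of histone H2A, alters these transcripts once the enzymes that ubiquitinate H2A are gone.

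BAP1 itself fell from 111 and 112 counts per 1000000 counts in genes (CPM) in dKO to 9.63 and 6.66 CPM in tKO (limma adjusted p = 0.0065). RING1, the gene of RING1A, had 12 to 17 counts in every library, while RNF2, the gene of RING1B, was still counted at 68.6 to 86.8 CPM, so its transcript level does not show the mutation. BAP1 is among the genes of a chromosome 3 segment with reduced transcripts in tKO 2. Libraries held between 16054590 and 18455410 counts in genes, with higher totals in both dKO libraries. At this depth 3 counts equal 0.163 to 0.187 CPM. The blood cell markers SPI1, MPO, ITGAM, HBG1 and GATA1 had no count in any library, and the summed level of the blood cell list, nearly all KIT, ran from 47.5 to 58.9 CPM in dKO and from 46.5 to 52.0 CPM in tKO. Of 7 epithelial markers 3 were at 0, with sums of 23.2 to 24.2 CPM in dKO and 19.4 to 23.3 CPM in tKO. Of 7 mesenchymal markers 3 were at 0, with sums of 654 to 701 CPM in dKO and 416 to 648 CPM in tKO. Among the mesenchymal markers, VIM was at 263 CPM in tKO 1 against 479 to 514 CPM in the other libraries, and its gene lies in a part of chromosome 10 reduced in tKO 1. THY1, outside both reduced parts, was at 76.1 and 63 CPM in dKO and 51.5 and 40.5 CPM in tKO (log2 fold change -0.60, below an unadjusted 0.05 but with a limma adjusted p = 0.996). The other tested mesenchymal markers, FN1 and COL1A1, had log2 fold changes of -0.03 and 0.03. VIM, THY1, FN1 and COL1A1 are given after their values were seen, and their part in the results below was not tested. None of the 10 stress genes lies in the chromosome 10 part, nor in the chromosome 3 segment. CPM are shares of the RNA of a culture, so fewer cells with a transcript and less transcript per cell cannot be told apart.

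In the integrated stress response, kinases that sense unfolded protein, lack of amino acids, lack of haem or viral RNA phosphorylate the initiation factor eIF2. Most translation then slows, while upstream reading frames let ribosomes reach the coding sequence of ATF4. ATF4 protein activates genes for amino acid supply and, with prolonged stress, DDIT3, ATF3, TRIB3 and CHAC1, which can favour cell death. HSPA5 and XBP1 belong to the parallel arms of the unfolded protein response, run by ATF6 and IRE1. BAP1 has been reported to repress ATF3 and DDIT3. ATF4 activity and XBP1 splicing are controlled after transcription, so gene counts show only their transcript levels.

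Members of the group, 5 in all, carry a classical response element in the promoter sequences of RefSeq, which span 250 bases before to 50 bases after each start site. These windows were available for all 10 members, at 17 start sites, and each was located in GRCh37, the build of the counts. The C/EBP-ATF composite element bound by ATF4 with C/EBP partners (TGATGNAA, either strand) was in 3.62% of the 35116 promoters of the table, and in those of ATF3, ASNS and CHAC1. The endoplasmic reticulum (ER) stress element of ATF6 and XBP1 (CCAAT and CCACG separated by 9 bases, either strand) was in 0.0769% of promoters, and in those of HSPA5 and XBP1. The unfolded protein response core (TGACGTG, 1.97% of promoters) and the cyclic AMP response element (TGACGTCA, 1.85%) were in none of the members' windows. The elements are shown as matches to sequences described for factors of this response. Each line runs 5′ to 3′ on the strand of the gene, with the element in capitals.
ATF3, start site of the longer transcript, chr1:212738528-212738595, plus strand: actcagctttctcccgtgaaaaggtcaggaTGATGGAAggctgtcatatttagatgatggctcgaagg
ASNS, chr7:97501751-97501818, minus strand: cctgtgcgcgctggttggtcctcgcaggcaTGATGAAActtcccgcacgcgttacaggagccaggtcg
CHAC1, chr15:41245430-41245497, plus strand, element on the opposite strand: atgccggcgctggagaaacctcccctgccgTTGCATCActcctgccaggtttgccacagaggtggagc
HSPA5, chr9:128003640-128003718, minus strand: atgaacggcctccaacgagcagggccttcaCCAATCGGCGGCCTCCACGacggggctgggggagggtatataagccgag
XBP1, chr22:29196561-29196639, minus strand: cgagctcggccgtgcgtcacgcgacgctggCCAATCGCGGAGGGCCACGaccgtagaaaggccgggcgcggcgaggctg
With the start site counted as 0, the element began at -191 for ATF3, -68 for ASNS, -209 for CHAC1, -66 for HSPA5 and -52 for XBP1. The ATF3 window printed is that of its upstream start site. Transcript lengths were not compared, so the words longer transcript in its label were not checked. ATF3, ASNS and XBP1 each had another window, which held none of the elements. Letters alone do not show that a factor was bound in these cells.

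Without an applied stress the 10 transcripts spanned a wide range. Compared per kilobase of the canonical transcript, ATF4 was the highest at 171 to 227 CPM per kilobase over the 4 libraries, above 98.1% of tested genes. HSPA5, the main chaperone of the ER (BiP), followed at 139 to 154 CPM per kilobase. XBP1 ranged from 41.7 to 58.4 CPM per kilobase and ASNS, the enzyme that makes asparagine, from 39.6 to 47.8, and these ranges overlapped. TRIB3, a pseudokinase that restrains ATF4 and AKT signalling, had 11.9 to 14.7 CPM per kilobase. DDIT3 had 9.72 to 11.5 CPM per kilobase and ATF3 5.95 to 7.47. DDIT4 (2.60 to 5.83) and SESN2 (3.85 to 4.65), both inhibitors of mTORC1 signalling, overlapped in CPM per kilobase. CHAC1, which degrades glutathione, came last at 0.369 to 0.622 CPM per kilobase, above only 7.7% of tested genes. XBP1 and ASNS, and DDIT4 and SESN2, were the neighbours in this order that did not differ beyond their spread. With lengths from the union of annotated exons, ATF4 still led (mean 104 CPM per kilobase) and CHAC1 still came last (0.401), but SESN2 (4.25) and DDIT4 (4.57) exceeded ATF3 (3.27).

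**Figure D1:**
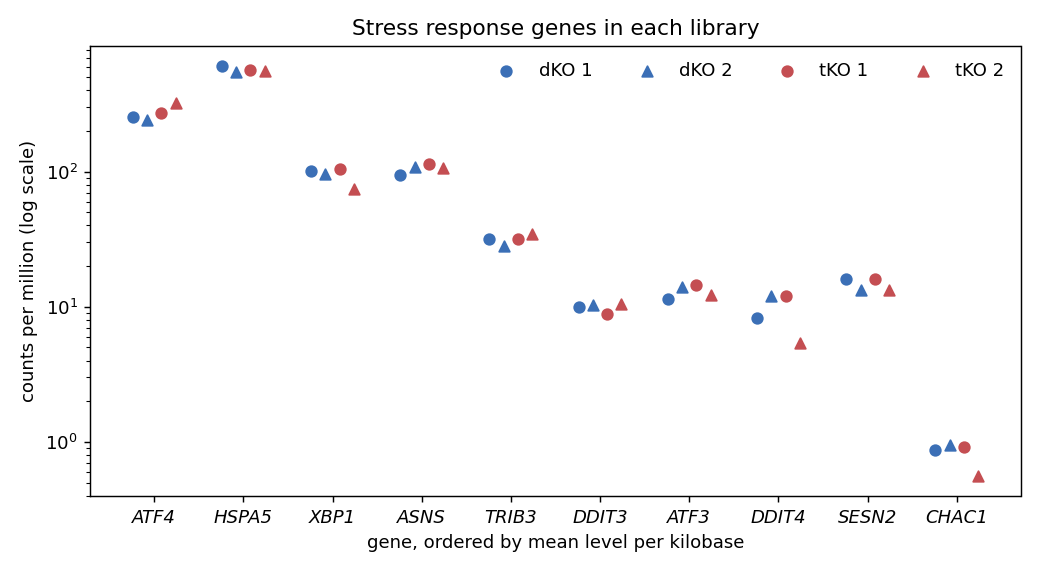
CPM of the 10 genes in each library, on a log axis, with dKO in blue, tKO in red, library 1 as circles and library 2 as triangles. Genes are ordered by their mean level per kilobase, from ATF4 to CHAC1. Apart from ATF4, the dKO and tKO points of every gene overlap, and DDIT4 (5.36 CPM), XBP1 (74.7 CPM) and CHAC1 (0.561 CPM) are lowest in tKO 2.

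Loss of BAP1 in the RING1A/B mutant background was not accompanied by a change in any of the 10 genes that passed the test. In limma, 0 of 10 had an adjusted p-value below 0.05 (smallest 0.996), against 0.0132% of all tested genes, and 1, ATF4, had an unadjusted p-value below 0.05, against 3.55% (1.4% higher and 2.15% lower in tKO). The edgeR quasi-likelihood test called 0 of 10 (1 below an unadjusted 0.05), and so did DESeq2 (0 below it). Of all tested genes, 0.00661% were called by edgeR, 0.185% by DESeq2, 0.00661% by limma without a trend, 0.00867% with a filter at 5 CPM, 0.00632% with unstranded counts and 0.0859% with a replicate block, and each of these called 0 members. Log2 fold changes (tKO minus dKO) ran from -0.30 to 0.25, with 5 above and 5 below 0 and a median of -0.01, beside -0.00137 for all tested genes. The values of dKO and tKO overlapped in 9 of 10 genes. Separation of the groups was seen in 1 member, against 31.7% of all tested genes. For 8 of 10 members the 95% interval of the log2 fold change lay within -1 and 1, against 78.3% of tested genes, so that a change of 2-fold lies outside the interval. DDIT4 and CHAC1 were the exceptions.

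**Figure D2:**
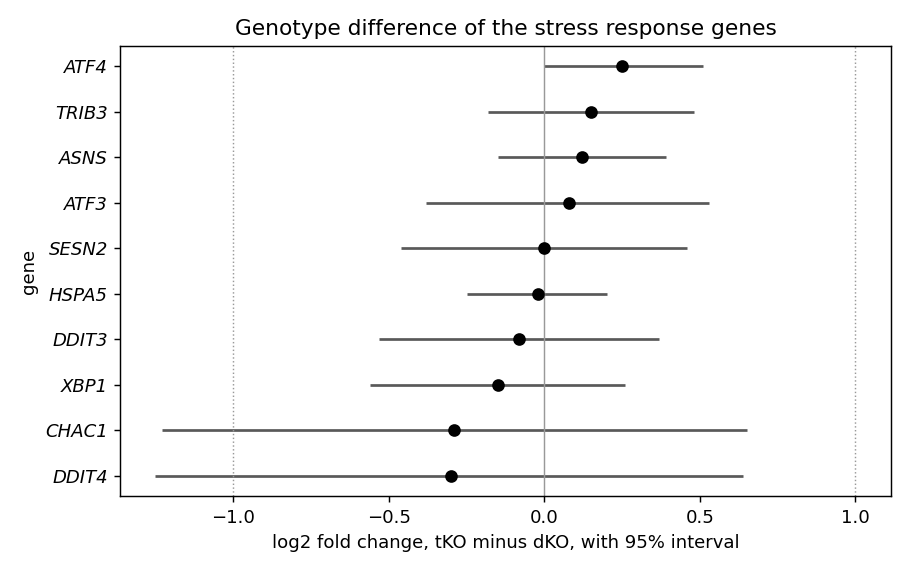
Log2 fold change of each gene between tKO and dKO (points), with its 95% interval from limma (lines). The solid vertical line marks no difference and the dotted lines a 2-fold difference. Of the 10 intervals 9 span 0 and that of ATF4 begins at 0.00, and those of DDIT4 (-1.25 to 0.64) and CHAC1 (-1.23 to 0.65) are the widest.

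ATF3 and DDIT3 are the members for which repression by BAP1 has been described. ATF3 (ENSG00000162772.12, GRCh37 chromosome 1, 212738676 to 212794119, plus strand) encodes a stress-induced basic leucine zipper factor that mostly represses. It stood at 11.5 and 14.0 CPM in dKO and at 14.5 and 12.3 CPM in tKO. The highest and lowest libraries were tKO 1 and dKO 1, and tKO 2 fell between the dKO libraries. Mean ATF3 levels were 12.7 ± 1.7 CPM for dKO and 13.4 ± 1.58 CPM for tKO (SD, n = 2 each). The log2 fold change was 0.08 ± 0.19 (SE; limma adjusted p = 0.996). Its 95% interval placed tKO between 76.8% and 145% of dKO. Without dKO 1 the log2 fold change was -0.05, and without tKO 1 it was -0.06, so its sign rested on single libraries.

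DDIT3 (ENSG00000175197.6, chromosome 12, 57910371 to 57915520, minus strand) encodes CHOP, the factor linked to cell death under lasting ER stress. It had 183 and 186 counts in dKO and 144 and 167 counts in tKO, or 9.92, 10.3, 8.77 and 10.4 CPM. The dKO libraries lay between the tKO libraries. Mean DDIT3 levels were 10.1 ± 0.299 CPM for dKO and 9.59 ± 1.15 CPM for tKO (SD, n = 2 each), and the log2 fold change was -0.08 ± 0.19 (SE; limma adjusted p = 0.996). The 95% interval ran from 69.3% to 129% of dKO, and the sign turned to 0.03 without tKO 1. A rise of CHOP transcript beyond this upper bound was thus outside the interval, in untreated cells that lack RING1A/B.

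DDIT3 also required counts by strand. Reads of the opposite orientation made up 37.4% to 50.3% of the stranded reads over DDIT3, at 114 and 111 counts in dKO and 146 and 121 in tKO. In the other 9 members the share was at most 1.29%. In the GENCODE release used for positions, the plus-strand genes MARS1 and MBD6 overlap the ends of DDIT3, sharing 982 and 1028 bases. MARS1, methionyl-tRNA synthetase, is itself an amino acid response gene and stood at 260 to 282 CPM. Unstranded counting left DDIT3 with 128 and 120 counts in dKO and 96 and 115 in tKO, and a log2 fold change of -0.07. A later annotated minus-strand transcript, ENSG00000285133, lies inside DDIT3, and its reads would not be told apart from those of DDIT3.

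ATF4 (ENSG00000128272.10, chromosome 22, 39915700 to 39918688, plus strand), the central factor of the response, was the member with groups that did not overlap. It stood at 254 and 242 CPM in dKO and at 270 and 322 CPM in tKO. Both tKO libraries were above both dKO libraries, an ordering that 15.8% of all tested genes shared. Mean ATF4 levels were 248 ± 8.10 CPM for dKO and 296 ± 36.3 CPM for tKO (SD, n = 2 each). The log2 fold change was 0.25 ± 0.11 (SE), at an unadjusted p of 0.0496 and an adjusted p of 0.996 in limma. The unadjusted p-value was 0.05 or above in limma with library totals in place of TMM, with other filters and with the replicate number as a block. Without tKO 2 the log2 fold change was 0.14 (limma adjusted p = 0.775) and without tKO 1 it was 0.37 (limma adjusted p = 0.0139), so the difference was larger for tKO 2.

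XBP1 (ENSG00000100219.12, chromosome 22, 29190543 to 29196585, minus strand) encodes the factor made active by IRE1 through splicing. It was at 101 and 95.8 CPM in dKO, 105 CPM in tKO 1 and 74.7 CPM in tKO 2. Library tKO 1 was the highest of the 4 and tKO 2 the lowest. Its log2 fold change was -0.15 ± 0.17 (SE; limma adjusted p = 0.996), and 0.10 without tKO 2.

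HSPA5 (ENSG00000044574.7, chromosome 9, 127997132 to 128003661, minus strand) was at 602 and 545 CPM in dKO and 571 and 552 CPM in tKO. Both tKO libraries lay between the dKO libraries, and the 95% interval ran from 84.0% to 115% of dKO, the narrowest of the 10 genes. ASNS (ENSG00000070669.12, chromosome 7, 97480989 to 97501854, minus strand) was at 94.3 and 109 CPM in dKO and 114 and 106 CPM in tKO. The dKO 1 value was the lowest and tKO 1 the highest, and the log2 fold change was 0.12 ± 0.11 (SE). TRIB3 (ENSG00000101255.6, chromosome 20, 343479 to 378203, plus strand) was at 32 and 28 CPM in dKO and 31.7 and 34.6 CPM in tKO. Its dKO 1 and tKO 1 values were nearly equal, and its 95% interval ran from 88.3% to 140% of dKO.

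SESN2 (ENSG00000130766.4, chromosome 1, 28586029 to 28609002, plus strand), which encodes a leucine sensor upstream of mTORC1, was at 16.1 and 13.3 CPM in dKO and again at 16.1 and 13.3 CPM in tKO. Library 1 was above library 2 in both genotypes, by the same log2 ratio of -0.29, while the genotype means were equal at 14.7 ± 1.95 CPM (SD, n = 2 each). DDIT4 (ENSG00000168209.4, chromosome 10, 74033678 to 74035794, plus strand), also called REDD1, was at 8.29 and 12 CPM in dKO, 12 CPM in tKO 1 and 5.36 CPM in tKO 2. Its gene lies on the long arm of chromosome 10, outside the part reduced in tKO 1. CHAC1 (ENSG00000128965.7, chromosome 15, 41245160 to 41248710, plus strand) had 16 and 17 counts in dKO and 15 and 9 counts in tKO. At these counts the exact Poisson 95% intervals of dKO 1 (0.496 to 1.41 CPM) and tKO 2 (0.256 to 1.06 CPM) overlapped. Such intervals cover counting error alone. PCR copies of a molecule are counted as separate reads, so the intervals can be too narrow.

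Differences between libraries of the same genotype were then counted, without a test. A log2 ratio above 0.5 in size separated tKO 1 from tKO 2 in 3 of 10 members (DDIT4, CHAC1 and XBP1), against 19.2% of all tested genes. It separated the dKO libraries in 1 of 10 (DDIT4), against 9.16%. DDIT4 had 197 counts in tKO 1 and 86 in tKO 2, a log2 ratio of -1.17. The exact Poisson 95% interval was 10.4 to 13.8 CPM in tKO 1 and 4.28 to 6.62 CPM in tKO 2. These intervals did not overlap, and the cause of the gap was not tested. In dKO it had 153 and 215 counts, a log2 ratio of 0.50. For XBP1 the intervals were 99.8 to 110 CPM in tKO 1 and 70.5 to 79.0 CPM in tKO 2.

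Against dKO alone, tKO 2 stood apart in both directions. With tKO 1 left out, 3 of 10 members passed an adjusted p-value of 0.05 in limma: ATF4 rose, with a log2 fold change of 0.37, XBP1 fell, with -0.41, and DDIT4 fell, with -0.89 (limma adjusted p = 0.0139, 0.0105 and 0.00753). In that fit the single tKO library is assumed to vary like the dKO pair, and 8.34% of all tested genes passed, so it describes this library and not the genotype. With tKO 2 left out, 0 of 10 members passed, while 2.91% of tested genes did. DDIT4 then had a log2 fold change of 0.28 and XBP1 of 0.10, opposite in sign to those of tKO 2.

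**Figure D3:**
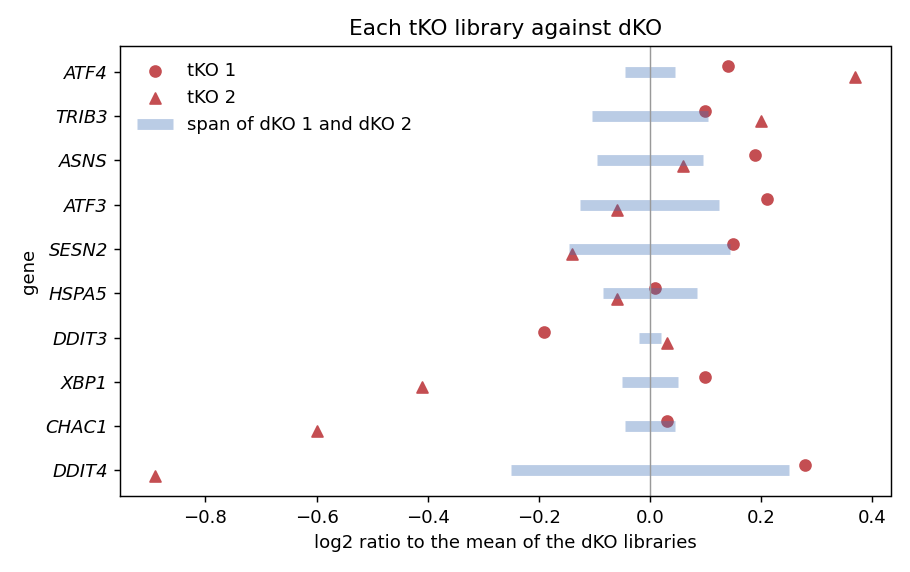
Log2 ratio of tKO 1 (circles) and tKO 2 (triangles) to the mean of the dKO libraries, with the span between dKO 1 and dKO 2 as a blue bar. The tKO libraries lie on opposite sides of the dKO mean for 7 genes. The share of all tested genes that do so was not counted. They lie farthest apart for DDIT4 (0.28 and -0.89), CHAC1 (0.03 and -0.60) and XBP1 (0.10 and -0.41). Both tKO libraries lie above the dKO mean for ATF4 (0.14 and 0.37), ASNS and TRIB3.

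The wider pathway was read through 7 lists of 124 genes, of which 123 were matched and 119 tested. None of the 119 passed an adjusted p-value of 0.05 (limma, smallest 0.996; 0 also with edgeR and DESeq2), against 0.0132% of all tested genes, and 2 (1.68%) had an unadjusted p-value below 0.05, against 3.55%. Both are named for that reason, after their values were seen. EIF2B1, a subunit of the exchange factor that recharges eIF2, was at 101 and 95.3 CPM in dKO and 115 and 119 CPM in tKO, with a log2 fold change of 0.26. CREBZF, a basic leucine zipper partner of ATF4, was at 149 and 173 CPM in dKO and 132 and 131 CPM in tKO, with a log2 fold change of -0.28. Groups did not overlap in 18 genes that were higher and 16 that were lower in tKO, together 28.6% of the list genes against 31.7% of all tested genes.

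No gene passed the test among the stress sensors and eIF2 factors, the amino acid and folate enzymes, the transporters or the aminoacyl-tRNA synthetases. The list of stress sensors and eIF2 factors (18 genes tested) had a median log2 fold change of 0.00, from -0.13 for EIF2AK2, the kinase PKR, to 0.26 for EIF2B1. Enzymes of amino acid and folate metabolism (12 tested) had a median of 0.03. CTH, which makes cysteine, was the highest of them at 0.39 (19.3 and 26.2 CPM in dKO, 26.9 and 32.1 CPM in tKO). ALDH1L2, a mitochondrial folate enzyme, was the lowest at -0.53, with 5 to 19 counts per library. Amino acid transporters (11 tested) had a median of 0.07, from -0.17 for SLC43A1 to 0.23 for SLC7A1, a carrier of arginine and lysine. Aminoacyl-tRNA synthetases (14 tested) had a median of 0.07, from -0.04 for NARS1 to 0.14 for YARS1.

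Other reported targets of ATF4 and CHOP (20 tested of 24) had a median of -0.06. ATF5, a factor translated like ATF4, was the highest of them at 0.32, and BBC3, the cell death gene PUMA, the lowest at -0.44 (7.10 and 10.4 CPM in dKO, 6.82 and 5.79 CPM in tKO). Both tKO libraries were below both dKO libraries in 7 of 20, against 15.9% of all tested genes. They were above them in 0, against 15.8%. In the same way, 5 of 18 stress sensors and eIF2 factors were higher and 1 lower. For amino acid and folate enzymes these counts were 4 and 1 of 12, and for transporters 2 and 1 of 11. For synthetases they were 4 and 0 of 14, and for the ER targets below 0 and 3 of 24. Other basic leucine zipper partners had 3 and 3 of 20. These counts carry no test, and 0 of the 20 ATF4 and CHOP targets passed the test of single genes. The list genes FGF21, NUPR1 and GDF15 were too low to be tested, with 0 counts of FGF21 in all libraries and at most 1 of NUPR1 or GDF15 in any. TXNIP was the gene that could not be matched by its identifier.

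ER targets of XBP1 and ATF6 (24 tested) had a median log2 fold change of -0.00, with SYVN1, a ubiquitin ligase of ER quality control, the highest at 0.11. The lowest was EDEM1, which directs misfolded glycoproteins to degradation, at -0.58 (53.2 and 52.2 CPM in dKO, 46.6 CPM in tKO 1 and 26.3 CPM in tKO 2). MANF, an ER stress protein, had -0.45, with 51.6 CPM in tKO 2 against 91.9 to 102 CPM in the others. MANF was named after its values were seen. EDEM1 and MANF are the 2 list genes inside the reduced part of chromosome 3, where the median log2 ratio of tKO 2 to dKO was -0.92 over 358 tested genes, and their own ratios were -1.01 and -0.91. Other basic leucine zipper partners (20 tested) had a median of -0.01. The highest was FOS at 0.61, with 9 to 19 counts per library, and the lowest JUN at -0.59, with 118 and 122 counts in dKO, 105 in tKO 1 and 47 in tKO 2. Like DDIT4, JUN was lowest in tKO 2.

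With tKO 1 left out, 6 of the 119 list genes passed in limma (KLHL24, CTH, SLC7A1, JUN, EDEM1 and MANF), against 8.34% of all genes. CTH and SLC7A1 were higher in tKO 2, and the other 4 were lower.

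**Figure D4:**
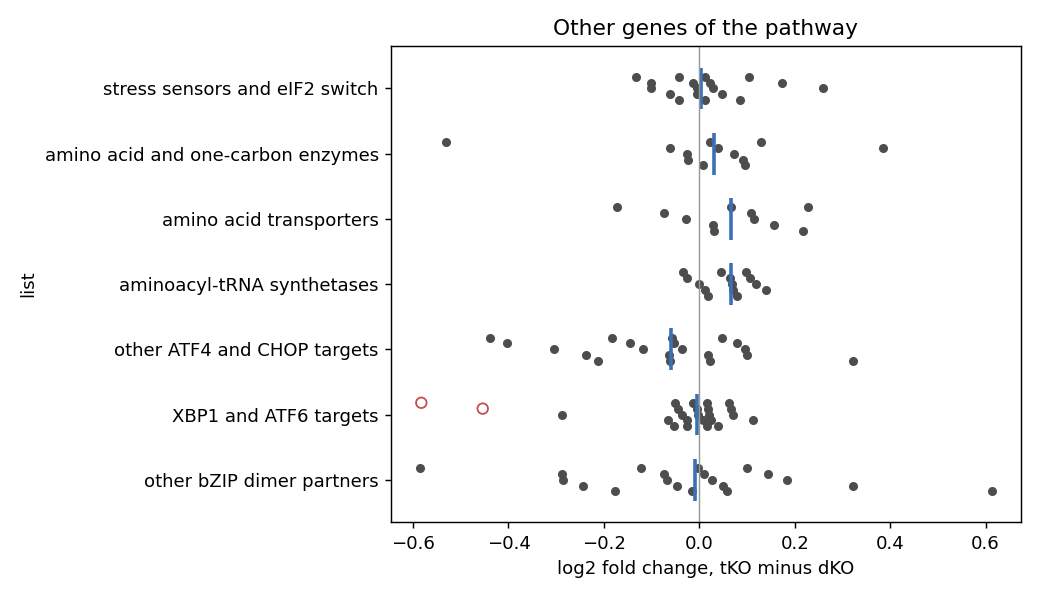
Log2 fold change (tKO minus dKO) of the 119 tested genes in the 7 lists, 1 point per gene, with the median of each list as a blue line. Open red circles are EDEM1 and MANF, in the reduced part of chromosome 3. List medians lie between -0.06 and 0.07.

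The promoter elements searched for above gave a grouping that did not depend on gene lists. A gene without a match in these windows could still hold an element outside them. Of the tested genes with a RefSeq promoter, 298 held a TGATGNAA element, and their median log2 fold change was -0.02 (quartiles -0.15 and 0.10). The 10662 genes without it had a median of -0.00 (quartiles -0.12 and 0.10). None of the 298 passed an adjusted p-value of 0.05 in limma, and 4.70% had an unadjusted p-value below 0.05, against 3.51% of those without the element. For the ER stress element there were 16 genes, with a median of -0.03 and 1 gene (6.25%) at an unadjusted p-value below 0.05, against 3.54% of genes without it. Genes with TGACGTG (363) and TGACGTCA (420) had medians of -0.01 and 0.01. Here the shares below an unadjusted limma p-value of 0.05 were smaller than in genes without the motif. They were 2.75% against 3.57% for TGACGTG and 1.9% against 3.61% for TGACGTCA.

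The pattern of the 3 leading factors over the 4 libraries was shared with many genes. Likeness was measured as the Euclidean distance between log2-CPM profiles centred on their mean, among 11474 other genes at 5 CPM or more. The closest to ATF3 were WDFY1, TMEM60 and ZFYVE1, with distances of 0.00949, 0.0252 and 0.0277. Those closest to DDIT3 were ENSG00000262879, LY6E and GTPBP2, at 0.0121, 0.0174 and 0.0206. Those closest to ATF4 were ADAMTS17, HARS2 and MYO18A, at 0.00838, 0.0231 and 0.0241. Within a distance of 0.2 there were 895 genes for ATF3, 2812 for DDIT3 and 1138 for ATF4, so that 4 libraries do not set these profiles apart.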

How the data were processed

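RNA-seq libraries were made from polyadenylated RNA with a stranded kit. Per the labels and methods of the study, the authors trimmed reads with cutadapt (1.12) through Trim Galore (0.4.4), removed ribosomal reads with bowtie (1.2), and mapped the rest to GRCh37 with STAR (2.5.2b). The authors deposited raw counts of reads for each GENCODE release 19 gene, from uniquely mapped reads, without normalisation or pooling. The count column for reads antisense to the gene, the orientation of the kit, was used.

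Genes exceeding 0.5 CPM in 2 or more libraries were tested. Log2-CPM (prior count 2, TMM factors between 0.990 and 1.009, edgeR 4.0.16) were fitted with genotype in limma (3.58.1, R 4.3.3) with a mean-variance trend, and p-values were adjusted by Benjamini-Hochberg over the 15136 tested genes. The fold change understates that of genes with few counts. This filter, TMM and the linear model follow the methods of the study. Printed CPM use library totals. Symbols, positions and lengths were those of GENCODE 44 (GRCh37 lift), joined by unversioned identifier (97.5% of tested genes). For DDIT4, which has no canonical transcript there, the exon union gave the length. The fit was tested on simulated data. P-values of limma weigh the genotype difference against the spread between the 2 libraries of each genotype, moderated over all tested genes. Whether that spread includes differences between clones is not known.

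The members and lists were chosen with earlier results of these data known. Beyond the members and BAP1, the text names in each list the tested genes past the threshold and those with the highest and lowest log2 fold change. For ATF3, DDIT3 and ATF4 it also names the 3 genes with the most similar profile. Genes outside this rule were chosen after their values were seen. They are CREBZF, MANF, VIM, THY1, FN1, COL1A1 and the genes overlapping DDIT3. They also include list genes too low to be tested or called without tKO 1, and markers without counts. Alternatives were other tests (edgeR quasi-likelihood, DESeq2 1.42.0, limma-voom, no trend), other scaling, filters, prior count, unstranded counts, the replicate number as a block, and leaving out each library. Same-numbered libraries hardly deviated together (correlation of deviations over genes 0.0581). A blood cell marker of the list is not reported here.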

Additional observations from a re-analysis of the deposited data

How the results depend on the processing

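The number of members past an adjusted p-value of 0.05 (0 of 10) was the same under 14 of 15 alternatives. Leaving out single libraries gave 0 to 3, the 3 without tKO 1. The number of pathway list genes past it (0 of 119) ran from 0 to 6 across these fits and was 0 elsewhere. The median log2 fold change of the members (-0.01) ran from -0.06 to 0.12 across the same fits, the last without tKO 2. With the replicate number as a block, 0 of 10 members and 0 of the list genes passed, so the pairing changed no call; 13 genes of the whole table passed against 2. ATF4 also had an unadjusted p-value below 0.05 with edgeR, limma-voom and RLE size factors, but not with DESeq2, limma without a trend, library totals, either other filter, unstranded counts, a prior count of 0.25 or the block. SESN2 was at -0.000763 with library totals, -0.01 with no filter and -0.00323 with unstranded counts, against a value near 0 above. Leaving out single libraries reversed ATF3 (lowest -0.06, highest 0.21), DDIT3 (-0.19 to 0.03), HSPA5 (-0.11 to 0.05, and 0.01 without tKO 2), SESN2 (-0.14 to 0.15), XBP1 (-0.41 to 0.10), CHAC1 (-0.60 to 0.03) and DDIT4 (-0.89 to 0.28). ATF4 (0.14 to 0.37), ASNS (0.02 without dKO 1 to 0.21 without dKO 2) and TRIB3 (0.04 without dKO 2 to 0.25 without dKO 1) kept their direction under the 15 alternatives, but not their size. At 9 to 17 counts per library, depth limits CHAC1. The cause of these changes was not tested.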
